A study of Mus musculus with 12 samples.

Results

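The genes described here carry a cell through mitosis: cyclins and kinases that start it, the checkpoint and the ubiquitin ligase that time it, the kinetochores and motors of the spindle, and the proteins that divide the cell. They are 43 named genes, taken by symbol from the deposited table of 27487 genes. Each of the 43 was in the table, and each passed the filter on low counts, which 16387 genes passed. The list was drawn up by name and by function, with earlier results of these data known.

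Polyadenylated RNA was sequenced from BV2 cells, a line of mouse microglia, the macrophages that live in nervous tissue, which was immortalised with the raf and myc oncogenes and divides in culture. In the Neu+NETS group the cells were cultured with primary mouse neutrophils treated with PMA, a phorbol ester under which neutrophils cast out NETs, extracellular traps of chromatin and granule proteins. In the Neu group they were cultured with primary mouse neutrophils given no such stimulus, and in the CTR group they were cultured alone. There were 4 libraries a group, 12 in all. Traps, PMA and other products of the stimulated neutrophils came together in the Neu+NETS group, so their effects cannot be told apart, and the cells of every group are of the same line. The study asked how neutrophils and their traps act on microglia. Nothing in the labels says that the libraries of a group came from separate cultures, so a p-value is set against library-to-library spread that may be technical only.

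A dividing cell enters mitosis when cyclin B switches on the kinase Cdk1. Chromosomes then condense, their kinetochores catch spindle microtubules, and the spindle checkpoint holds back the anaphase-promoting complex until each is attached. That complex destroys securin and cyclin B, sister chromatids part, and the central spindle directs the ring that cleaves the cell. Most of these genes are transcribed in late G2 phase and mitosis and are silenced in resting cells, which is why they are widely read as a proliferation signature. In bulk RNA, fewer dividing cells and less RNA per dividing cell cannot be told apart.

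Much of this periodic transcription is known to run through promoters that hold CCAAT boxes, bound by the factor NF-Y, beside a cell cycle genes homology region (CHR), bound by the MuvB core that the repressor DREAM and the activators B-Myb and FoxM1 share. Promoter windows of 300 bases, 250 before and 50 after the annotated start, were found in a RefSeq table of build GRCm38.p6 for 35 of the 43 genes. A CHR, taken as TTTGAA or TTCGAA on either strand, stood in 28 of the 35 windows (80.0%), against 20.2% of the windows of 17492 protein-coding genes. The CCAAT box, also searched on both strands, stood in 26 (74.3%, against 42.3%), and both motifs together in 24 (68.6%, against 8.22%). E2F-like letters, GCGCGAA or GCGGGAA, stood in 2 windows (5.71%, against 8.90%), those of Cdk1 and Hmmr.

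The CHR of these genes lay close to the start. It began no more than 30 bases before the annotated start, or after it, in 25 genes, and in 15 genes each CHR of the window lay in or reached the bases after the start. The 25 and 15 were counted in these genes alone, so no share of other genes stands beside them. Counting only the bases before the start left 13 genes with a CHR (37.1%, against 18.4% of protein-coding genes), while the CCAAT count stayed at 26. Of the 13, the 4 whose RNA differed most between Neu+NETS and Neu are shown to let the spacing be read: Ccnb2 at chr9:70421505-70421804 (minus strand), Cdk1 at chr10:69352863-69353162 (minus strand), Kif11 at chr19:37376132-37376431 (plus strand) and Top2a at chr11:99024140-99024439 (minus strand). Each is printed 5′ to 3′ along the gene's strand from RefSeq GRCm38.p6, and capitals mark CHR, CCAAT and E2F-like letters, reverse-complemented where the motif lies on the other strand. The TTCGAA form reads the same on both strands, and no 2 of the marked motifs overlap.
Ccnb2: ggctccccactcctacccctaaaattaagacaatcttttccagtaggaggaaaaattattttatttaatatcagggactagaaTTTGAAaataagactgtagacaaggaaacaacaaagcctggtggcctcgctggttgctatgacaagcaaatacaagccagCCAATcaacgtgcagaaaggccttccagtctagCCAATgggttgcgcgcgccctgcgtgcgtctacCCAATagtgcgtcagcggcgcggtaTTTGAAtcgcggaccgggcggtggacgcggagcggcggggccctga
Cdk1: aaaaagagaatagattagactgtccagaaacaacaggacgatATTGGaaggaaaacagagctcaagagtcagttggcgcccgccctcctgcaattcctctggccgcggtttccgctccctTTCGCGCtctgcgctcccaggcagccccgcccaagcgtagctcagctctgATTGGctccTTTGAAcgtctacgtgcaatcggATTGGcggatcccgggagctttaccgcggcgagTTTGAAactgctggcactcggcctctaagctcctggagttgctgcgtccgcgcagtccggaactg
Kif11: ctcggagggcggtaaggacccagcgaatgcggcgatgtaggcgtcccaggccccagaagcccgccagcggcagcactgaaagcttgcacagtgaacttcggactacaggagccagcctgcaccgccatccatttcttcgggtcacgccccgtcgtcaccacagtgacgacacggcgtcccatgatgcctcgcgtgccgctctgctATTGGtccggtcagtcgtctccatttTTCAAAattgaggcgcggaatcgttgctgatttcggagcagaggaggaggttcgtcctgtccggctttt
Top2a: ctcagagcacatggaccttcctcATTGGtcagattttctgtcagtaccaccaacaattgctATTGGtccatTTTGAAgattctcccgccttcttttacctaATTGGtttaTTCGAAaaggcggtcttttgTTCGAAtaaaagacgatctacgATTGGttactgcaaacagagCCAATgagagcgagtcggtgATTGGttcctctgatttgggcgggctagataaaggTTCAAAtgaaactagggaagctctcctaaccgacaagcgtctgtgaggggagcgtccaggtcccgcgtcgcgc
Ccnb2 held 3 CCAAT boxes at -87, -54 and -21 bases from the start and CHRs at -167 and 4. Cdk1 held its nearest CHR at -15 and Kif11 its own at -19, with CCAAT boxes farther out at -48 and -45. Top2a held 6 CCAAT boxes and 4 CHRs. A match to letters is a description of the window, not a bound site, and the windows without one, such as that of Mad2l1, say nothing about binding elsewhere. The last 20 bases of 36 of the 38 windows of these genes were found in an annotated (GENCODE) transcript of the gene. Those of the Mad2l1 and Aurka windows were not, so the starts of these genes are less sure.

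**Figure D1:**
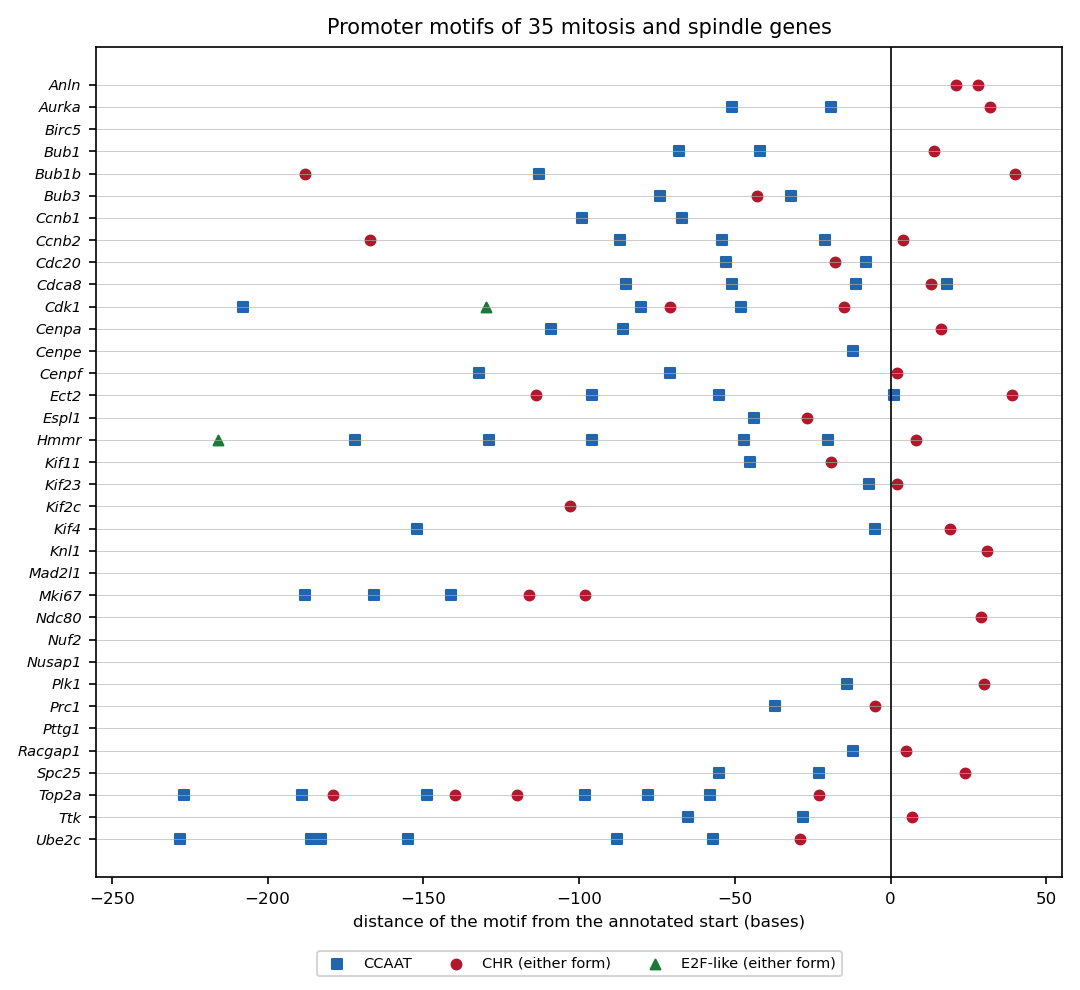
Position of each motif match in the promoter windows of 35 mitosis and spindle genes, in bases from the annotated start, 1 row a gene, with CCAAT boxes as squares, CHRs as circles and E2F-like letters as triangles. CCAAT boxes lay almost wholly before the start, and the CHRs of 25 genes began from 30 bases before it onward.

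Levels are given as FPKM (fragments per kilobase of transcript, scaled to the library's total), computed by the authors for each library. Log2 fold changes are from edgeR's quasi-likelihood test on the deposited counts, ± SE, with n = 4 libraries a group, and a gene was called at a Benjamini-Hochberg adjusted p under 0.05 over the 16387 genes tested. The test scales libraries by TMM, whose factors were 1.03 in the Neu+NETS libraries and 0.970 to 0.993 in the others. Ratios of FPKM read slightly higher for Neu+NETS than the tested fold changes do, and slightly lower for Neu against CTR. The median of the 43 genes in Neu+NETS against Neu was 0.1987 with TMM, 0.2709 with library totals and 0.2957 in limma on FPKM. In Neu against CTR these medians were -0.3944, -0.4102 and -0.4267. A gap remained without TMM, and its cause was not tested. Total estimated counts were 53512190 to 68316549 a library, and the 43 genes had 584 to 40252 counts in a library.

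The RNA of these genes was lowest in cells cultured with unstimulated neutrophils. Summed over the 43 genes it came to 1215 to 1244 FPKM in the Neu+NETS libraries, 1044 to 1073 FPKM in the Neu libraries and 1406 to 1424 FPKM in the CTR libraries, so the groups did not overlap. The mean FPKM was lowest in Neu for 34 of the 43 genes, in Neu+NETS for 7 and in CTR for 2. It was highest in CTR for 29 genes, in Neu+NETS for 13 and in Neu for 1. Levels differed widely among the genes: in CTR the lowest mean was 4.35 FPKM (Cdc25c), the median 21.2 and the highest 127 (Cdc20, the most abundant of the 43 in each group).

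Of the 43 genes, 29 were called lower and 1 higher in Neu+NETS against CTR, where 23.7% of all tested genes were called lower and 21.6% higher, 45.3% in all. Their median log2 fold change was -0.19, and the median of all genes tested was 0.0002. In Neu against CTR, 37 were called lower and 2 higher, beside 27.9% and 26.1% of all tested genes (54.1% in all), with a median of -0.39 (all genes 0.02). Between the co-cultures, in Neu+NETS against Neu, 32 were called higher and 8 lower, beside 29.4% and 33.1% of all tested genes (62.5% in all), with a median of 0.20 (all genes -0.05). The first 2 comparisons share the CTR libraries and the third shares a group with each, so the 3 sets of values are not independent.

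The largest log2 fold change among the 43 was 1.21, that of Mad2l1 in Neu+NETS against Neu, and it was the only one called at 1 or more in size. Of all tested genes 7.24% were called at that size in Neu+NETS against CTR, 9.12% in Neu against CTR and 17.4% in Neu+NETS against Neu. The 4 Neu+NETS libraries lay wholly below the 4 CTR libraries for 24 genes and wholly above for 1, beside 18.4% and 23.7% of all tested genes (42.2% did not overlap). The Neu libraries lay wholly below CTR for 38 genes and above for 0, beside 29% and 22.5% (51.6%). The Neu+NETS libraries lay wholly above Neu for 33 genes and below for 5, beside 32.6% and 26.9% (59.6%). Under median-of-ratios factors and under DESeq2, Neu+NETS against CTR gave 4 higher and 26 lower calls. With limma on log2(FPKM + 1) 4 were called higher and 25 lower, and over all genes the share of calls that were higher was 58.28%, against 47.64% in edgeR.

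**Figure D2:**
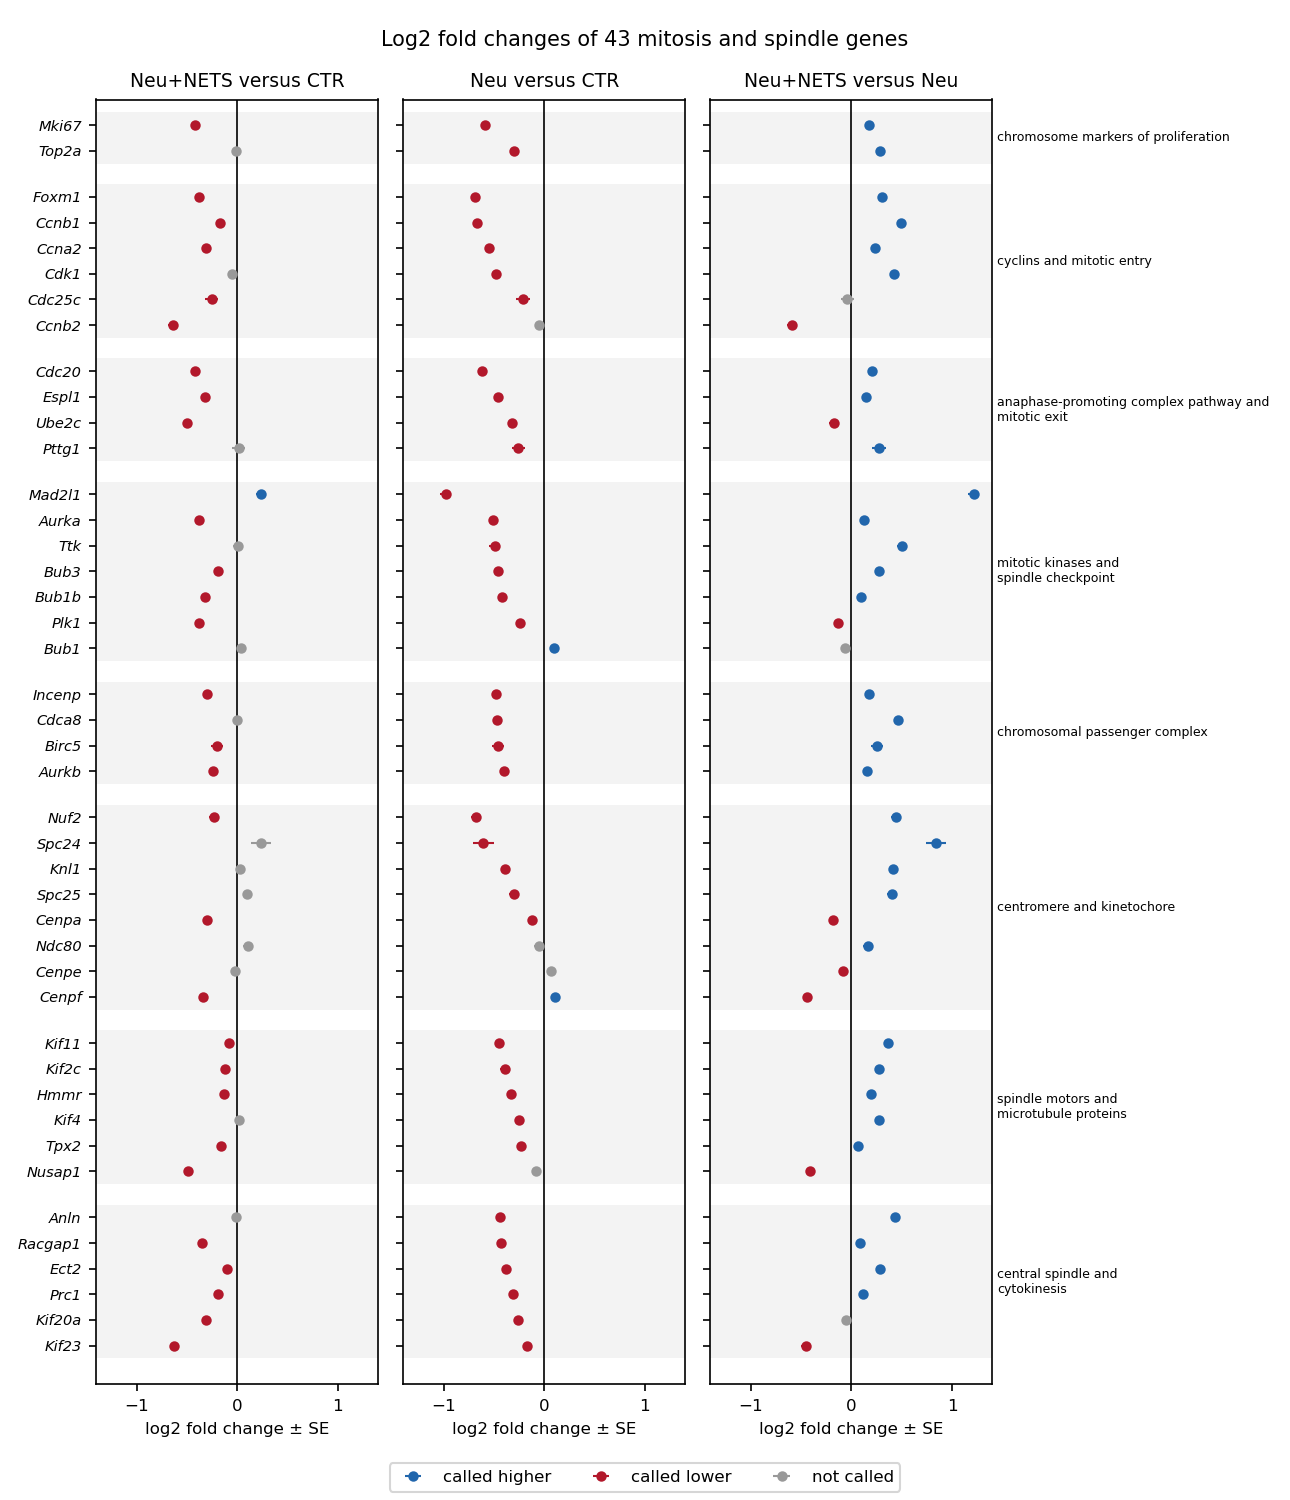
Log2 fold change ± SE of each of the 43 genes, grouped by role, in the 3 comparisons (edgeR, n = 4 libraries a group), coloured by whether the gene was called. Against CTR, 29 genes in Neu+NETS and 37 in Neu were called lower, and 32 were called higher in Neu+NETS against Neu.

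Markers of other cells were read in the same libraries, since the labels do not state if neutrophils still lay with the BV2 cells at lysis. Of 13 markers of mature neutrophils 7 were in the table, and their summed level was 0.919 to 1.38 FPKM in Neu+NETS, 13.96 to 14.56 in Neu and 5.93 to 7.32 in CTR. S100a8, an abundant transcript of neutrophils, averaged 0.0547, 0.189 and 0.257 FPKM in Neu+NETS, Neu and CTR. It was thus lower in Neu than in CTR, where the list's sum was higher in Neu. Of the 6 markers that passed the filter, 2 were called higher and 0 lower in Neu against CTR (26.1% and 27.9% of all tested genes). In Neu+NETS against CTR 0 were called higher and 4 lower (21.6% and 23.7%). Of 10 precursor markers 8 were in the table, summing to 7.24 to 9.36 FPKM in Neu+NETS, 20.4 to 24.1 in Neu and 15.9 to 18.5 in CTR, of which Cebpe made up most, while Mpo, Elane, Camp and Ngp were each at or near 0 in every group. The summed level of 12 of 12 microglia and macrophage markers was 585.6 to 613 FPKM in Neu+NETS, 957 to 1002 in Neu and 948 to 1008 in CTR, with 12 of the 12 called lower in Neu+NETS against CTR. Of 10 retinal markers 6 were in the table and they summed to no more than 3.06 FPKM in a library, although the labels name retina as the tissue. Lymphocyte and erythroid markers (2 of 6 and 3 of 5 in the table) summed to no more than 1.07 FPKM in a library. The sums of both neutrophil lists differed between the groups without overlap. They were higher in CTR, where BV2 cells were cultured alone, than in Neu+NETS, so these markers are not read here as a measure of neutrophils. The microglia and macrophage sum was lower in Neu+NETS and overlapped between Neu and CTR. The part of any of these markers in the differences of the mitotic genes was not tested.

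Among the cyclins and the genes of mitotic entry, 5 of 6 were called lower in Neu+NETS and 5 of 6 in Neu: Cdk1 was not called in Neu+NETS and Ccnb2 was not called in Neu. Counts by role, here and below, are small and are to be read beside the shares of all tested genes. Against CTR, 23.7% were called lower and 21.6% higher in Neu+NETS, and 27.9% and 26.1% in Neu. In Neu+NETS against Neu these shares were 33.1% and 29.4%. Cdk1, the kinase that drives entry, had 27.3, 25.4, 26.4 and 27.4 FPKM in Neu+NETS, 18.6, 17.8, 18.4 and 18.8 in Neu and 26.003, 26.03, 26.5 and 28.4 in CTR. The Neu libraries stood apart below the others, and Neu+NETS overlapped CTR. Cdk1 had log2 fold changes of -0.05 ± 0.034 (adjusted p = 0.216) in Neu+NETS and -0.48 ± 0.034 (adjusted p = 2.36e-09) in Neu, each against CTR. For Cdk1 the log2 fold change of Neu+NETS against Neu was 0.43 ± 0.034 (adjusted p = 6.85e-09). Ccnb1, which encodes the main cyclin partner of Cdk1, had 61.2, 62.7, 65.1 and 61.3 FPKM in Neu+NETS, 40.1, 42.7, 40.6 and 41.7 in Neu and 68.5, 66.3, 67.997 and 70.6 in CTR. Ccnb1 had log2 fold changes of -0.18 ± 0.030 (adjusted p = 0.00011) in Neu+NETS and -0.67 ± 0.030 (adjusted p = 6.39e-12) in Neu, each against CTR. For Ccnb1 the log2 fold change of Neu+NETS against Neu was 0.50 ± 0.030 (adjusted p = 1.66e-10), and its 3 groups were separate, in the order Neu, Neu+NETS, CTR from low to high.

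Ccnb2, the gene of the second B-type cyclin, ran the other way between the co-cultures. It had 39.1, 41.2, 38.5 and 40.1 FPKM in Neu+NETS, 54.9, 54.99, 59.9 and 53.1 in Neu and 60.4, 62.8, 58.6 and 57.7 in CTR. Here Neu+NETS was the low group and Neu overlapped CTR. Ccnb2 had log2 fold changes of -0.64 ± 0.044 (adjusted p = 3.33e-09) in Neu+NETS and -0.05 ± 0.044 (adjusted p = 0.381) in Neu, each against CTR. In limma on log2(FPKM + 1) Ccnb2 was called lower in Neu than in CTR, at -0.1033 (adjusted p = 0.0315). For Ccnb2 the log2 fold change of Neu+NETS against Neu was -0.59 ± 0.044 (adjusted p = 2.65e-09). Its fall in Neu+NETS, 1.56-fold, was the largest of the 43 genes there. The ratio of Ccnb2 to Ccnb1 in FPKM was 0.638, 0.657, 0.591 and 0.653 in Neu+NETS, 1.37, 1.29, 1.48 and 1.27 in Neu and 0.882, 0.947, 0.862 and 0.817 in CTR. The 3 groups did not overlap in this ratio, which was singled out after the values were seen and was given no test.

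Foxm1, the transcription factor that activates many genes of G2 phase and mitosis, had 14.4, 14.3, 13.1 and 14.2 FPKM in Neu+NETS, 10.5, 10.1, 10.1 and 11.5 in Neu and 17.4, 16.7, 18.4 and 18.02 in CTR. Foxm1 had log2 fold changes of -0.38 ± 0.042 (adjusted p = 1.24e-06) in Neu+NETS and -0.69 ± 0.043 (adjusted p = 4.56e-10) in Neu, each against CTR. For Foxm1 the log2 fold change of Neu+NETS against Neu was 0.31 ± 0.043 (adjusted p = 7.27e-06). Ccna2, the cyclin of S and G2 phase, averaged 61.5 ± 1.08 FPKM in Neu+NETS, 48.4 ± 0.676 in Neu and 73.95 ± 2.34 in CTR (SD, n = 4 each). Both genes had separate groups in the order Neu, Neu+NETS, CTR. Cdc25c, a phosphatase that activates Cdk1, was among the least abundant of the 43, at 3.77 ± 0.0841, 3.61 ± 0.191 and 4.35 ± 0.273 FPKM in Neu+NETS, Neu and CTR. It was called lower against CTR in both co-cultures, with log2 fold changes of -0.25 ± 0.065 (adjusted p = 0.00396) in Neu+NETS and -0.21 ± 0.065 (adjusted p = 0.0109) in Neu.

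**Figure D3:**
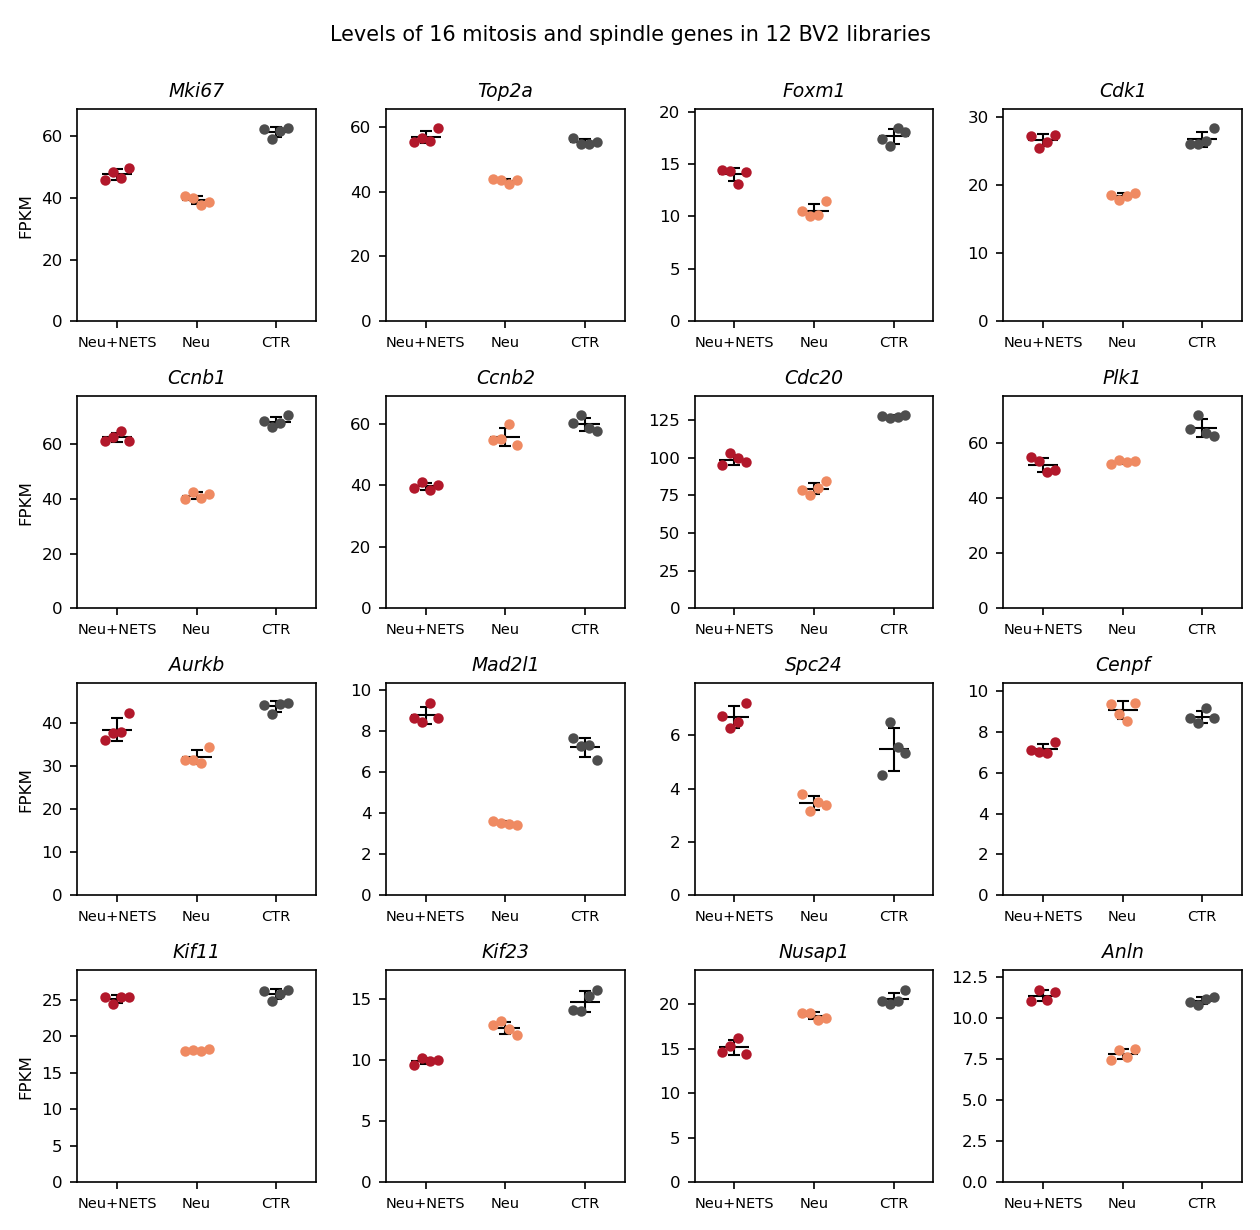
FPKM of 16 mitosis and spindle genes in the 12 libraries, as points, with the mean and SD of each group of 4 as a line and capped bar, and axes that start at 0. Mean FPKM was lowest in Neu and highest in CTR for Mki67, Foxm1, Cdk1, Ccnb1, Cdc20, Aurkb and Kif11. It was lowest in Neu and highest in Neu+NETS for Top2a, Mad2l1, Spc24 and Anln. Ccnb2, Plk1, Kif23, Nusap1 and Cenpf were lowest in Neu+NETS.

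The 4 genes that act on the anaphase-promoting complex and at mitotic exit were called lower in Neu without exception, and 3 of them in Neu+NETS. Cdc20, which switches the complex on, had 95.1, 103, 99.6 and 97.3 FPKM in Neu+NETS, 78.3, 75.5, 79.7 and 84.7 in Neu and 128, 127, 127 and 128 in CTR. Cdc20 had log2 fold changes of -0.42 ± 0.032 (adjusted p = 1.3e-08) in Neu+NETS and -0.62 ± 0.032 (adjusted p = 3.94e-11) in Neu, each against CTR. For Cdc20 the log2 fold change of Neu+NETS against Neu was 0.21 ± 0.032 (adjusted p = 2.32e-05). The groups of Cdc20 were separate, with 1.54-fold less RNA in Neu and 1.33-fold less in Neu+NETS than in CTR. Ube2c, the enzyme that passes ubiquitin to the complex, had 48.8, 47.7, 47.8 and 47.6 FPKM in Neu+NETS, 45.7, 50.5, 52.3 and 53.02 in Neu and 68.02, 65.2, 66.9 and 62.2 in CTR. Ube2c had log2 fold changes of -0.50 ± 0.042 (adjusted p = 3.67e-08) in Neu+NETS and -0.32 ± 0.042 (adjusted p = 3.73e-06) in Neu, each against CTR. For Ube2c the log2 fold change of Neu+NETS against Neu was -0.18 ± 0.042 (adjusted p = 0.00137). Both co-cultures lay below CTR and overlapped each other, and the difference between them was not called on FPKM by limma (adjusted p = 0.163).

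Securin and separase, which guard and cut the link between sister chromatids, differed. Pttg1 (securin) had 14.5, 15.2, 15.02 and 13.7 FPKM in Neu+NETS, 10.7, 11.4, 11.3 and 11.4 in Neu and 14.2, 15.3, 12.4 and 13.8 in CTR. Pttg1 had log2 fold changes of 0.02 ± 0.065 (adjusted p = 0.879) in Neu+NETS and -0.26 ± 0.065 (adjusted p = 0.00282) in Neu, each against CTR. For Pttg1 the log2 fold change of Neu+NETS against Neu was 0.27 ± 0.065 (adjusted p = 0.00147), and its Neu+NETS and CTR libraries overlapped. Espl1 (separase) averaged 21.9 ± 0.324 FPKM in Neu+NETS, 18.5 ± 1.23 in Neu and 26.5 ± 0.812 in CTR (SD, n = 4 each), and was lower than CTR in both co-cultures, at -0.32 ± 0.036 (adjusted p = 1.24e-06) in Neu+NETS and -0.46 ± 0.036 (adjusted p = 7.9e-09) in Neu on the log2 scale.

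Of the 7 mitotic kinases and checkpoint genes, 4 were called lower and 1 higher in Neu+NETS (23.7% and 21.6% of all tested genes). In Neu 6 were called lower and 1 higher (27.9% and 26.1%), each against CTR. Mad2l1 encodes Mad2, the checkpoint protein that binds Cdc20 and holds the anaphase-promoting complex off. It had 8.64, 8.44, 9.40 and 8.64 FPKM in Neu+NETS, 3.63, 3.54, 3.45 and 3.44 in Neu and 7.69, 7.28, 7.33 and 6.59 in CTR. Neu+NETS was above CTR and Neu far below, with no overlap between any groups. Mad2l1 had log2 fold changes of 0.23 ± 0.051 (adjusted p = 0.00108) in Neu+NETS and -0.98 ± 0.052 (adjusted p = 5.6e-11) in Neu, each against CTR. For Mad2l1 the log2 fold change of Neu+NETS against Neu was 1.21 ± 0.052 (adjusted p = 1.86e-12). It thus gave the largest fall of the 43 in Neu, the single rise called in Neu+NETS, and the largest difference between the co-cultures, 2.32-fold.

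The other checkpoint genes had smaller fold changes than Mad2l1 in Neu against CTR and between the co-cultures. In Neu+NETS against CTR the fold change of Bub1b was the larger in size. Bub1, the kinase that recruits checkpoint proteins to kinetochores, had 53.7, 53.2, 55.7 and 56.7 FPKM in Neu+NETS, 53.1, 53.8, 51.1 and 54.8 in Neu and 53.9, 50.6, 48.98 and 53.1 in CTR, and its groups overlapped. Bub1 had log2 fold changes of 0.04 ± 0.033 (adjusted p = 0.39) in Neu+NETS and 0.10 ± 0.033 (adjusted p = 0.0177) in Neu, each against CTR. For Bub1 the log2 fold change of Neu+NETS against Neu was -0.06 ± 0.033 (adjusted p = 0.12). Its call in Neu against CTR was lost when Neu library 2 or CTR library 3 was left out (adjusted p 0.0518 and 0.0714) and in limma on FPKM. Ttk, the kinase Mps1 that starts checkpoint signalling, had 10.99, 11.7, 10.7 and 11.7 FPKM in Neu+NETS, 7.71, 7.87, 7.08 and 6.86 in Neu and 10.5, 10.4, 10.7 and 11.5 in CTR. Ttk had log2 fold changes of 0.01 ± 0.051 (adjusted p = 0.897) in Neu+NETS and -0.49 ± 0.052 (adjusted p = 3.5e-07) in Neu, each against CTR. For Ttk the log2 fold change of Neu+NETS against Neu was 0.50 ± 0.052 (adjusted p = 1.82e-07), with only the Neu libraries apart. Bub1b and Bub3, partners of Mad2 in the checkpoint complex, were called lower in both co-cultures, with log2 fold changes of -0.32 ± 0.029 and -0.19 ± 0.032 in Neu+NETS and -0.42 ± 0.029 and -0.46 ± 0.033 in Neu.

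Plk1 and Aurka are the kinases that ripen centrosomes and build the spindle. Plk1 had 54.8, 53.3, 49.5 and 50.2 FPKM in Neu+NETS, 52.1, 53.6, 52.9 and 53.5 in Neu and 65.1, 69.9, 63.6 and 62.5 in CTR. Plk1 had log2 fold changes of -0.38 ± 0.041 (adjusted p = 8.87e-07) in Neu+NETS and -0.24 ± 0.041 (adjusted p = 7.42e-05) in Neu, each against CTR. For Plk1 the log2 fold change of Neu+NETS against Neu was -0.13 ± 0.041 (adjusted p = 0.00882). Both co-cultures lay below CTR and overlapped each other, and their difference was not called in limma on FPKM (adjusted p = 0.489) or with library totals alone (0.191). Aurka had 46.6, 47.5, 44.9 and 45.2 FPKM in Neu+NETS, 39.1, 38.8, 38.4 and 40.3 in Neu and 57.3, 57.3, 59.6 and 57.9 in CTR. Aurka had log2 fold changes of -0.38 ± 0.028 (adjusted p = 7.65e-09) in Neu+NETS and -0.51 ± 0.028 (adjusted p = 1e-10) in Neu, each against CTR. For Aurka the log2 fold change of Neu+NETS against Neu was 0.13 ± 0.028 (adjusted p = 0.000768), with 3 separate groups.

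The chromosomal passenger complex, in which the kinase Aurkb is held by Incenp, survivin (Birc5) and borealin (Cdca8), corrects faulty attachments and later guides cleavage. All 4 genes were called lower in Neu against CTR and higher in Neu+NETS against Neu, and 3 were called lower in Neu+NETS against CTR. Aurkb had 35.99, 37.7, 37.8 and 42.2 FPKM in Neu+NETS, 31.4, 31.4, 30.7 and 34.3 in Neu and 44.1, 41.99, 44.4 and 44.7 in CTR. Aurkb had log2 fold changes of -0.24 ± 0.041 (adjusted p = 0.000146) in Neu+NETS and -0.40 ± 0.042 (adjusted p = 3.23e-07) in Neu, each against CTR. For Aurkb the log2 fold change of Neu+NETS against Neu was 0.16 ± 0.042 (adjusted p = 0.00298), and Neu+NETS library 4 lay in the CTR range. Incenp, the scaffold, had 41.8, 40.2, 40.9 and 38.96 FPKM in Neu+NETS, 33.6, 32.6, 32.8 and 33.9 in Neu and 46.2, 47.6, 49.5 and 49.3 in CTR. Incenp had log2 fold changes of -0.30 ± 0.031 (adjusted p = 5.35e-07) in Neu+NETS and -0.48 ± 0.031 (adjusted p = 8.43e-10) in Neu, each against CTR. For Incenp the log2 fold change of Neu+NETS against Neu was 0.18 ± 0.031 (adjusted p = 8.24e-05), and its groups were separate. Cdca8 had 15.6, 17.6, 16.8 and 16.7 FPKM in Neu+NETS, 10.8, 11.1, 11.01 and 11.8 in Neu and 15.4, 16.3, 15.99 and 16.8 in CTR. Cdca8 had log2 fold changes of -0.0029 ± 0.039 (adjusted p = 0.963) in Neu+NETS and -0.47 ± 0.039 (adjusted p = 2.07e-08) in Neu, each against CTR. For Cdca8 the log2 fold change of Neu+NETS against Neu was 0.47 ± 0.039 (adjusted p = 1.42e-08). Its Neu+NETS libraries overlapped CTR, and the sign of the difference from CTR turned with the scaling (0.0206 with median-of-ratios factors). Birc5 was called lower, at -0.20 ± 0.057 (adjusted p = 0.00746) in Neu+NETS and -0.46 ± 0.057 (adjusted p = 2.57e-06) in Neu on the log2 scale. Its call in Neu+NETS was lost with library totals alone (adjusted p = 0.0511) and in limma on log2(FPKM + 1) with no filter (0.0646).

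Of the 8 centromere and kinetochore genes, 3 were called lower and the other 5 were not called in Neu+NETS, where 23.7% of all tested genes were called lower. In Neu 5 were called lower and 1 higher (27.9% and 26.1%), each against CTR. DESeq2 called 3 lower and 3 higher in Neu+NETS. Cenpf, a large kinetochore protein of G2 phase and mitosis, had 7.12, 7.03, 6.98 and 7.53 FPKM in Neu+NETS, 9.39, 8.88, 8.54 and 9.44 in Neu and 8.70, 8.42, 9.16 and 8.69 in CTR. Its Neu+NETS libraries lay below both other groups, which overlapped. Cenpf had log2 fold changes of -0.34 ± 0.035 (adjusted p = 5.94e-07) in Neu+NETS and 0.11 ± 0.035 (adjusted p = 0.0153) in Neu, each against CTR. For Cenpf the log2 fold change of Neu+NETS against Neu was -0.44 ± 0.035 (adjusted p = 6.57e-09). The small rise in Neu against CTR was lost without Neu library 1 or CTR library 2 (adjusted p 0.0627 and 0.0547) and in limma on FPKM. Cenpa, the histone that marks centromeres, had 14.1, 14.1, 13.97 and 13.7 FPKM in Neu+NETS, 14.8, 14.5, 14.5 and 14.95 in Neu and 16.2, 17.4, 16.1 and 16.4 in CTR. Cenpa had log2 fold changes of -0.30 ± 0.032 (adjusted p = 9.12e-07) in Neu+NETS and -0.12 ± 0.032 (adjusted p = 0.00494) in Neu, each against CTR. For Cenpa the log2 fold change of Neu+NETS against Neu was -0.18 ± 0.032 (adjusted p = 0.00012), so that the order was Neu+NETS, Neu, CTR from low to high with no overlap. Cenpe, a kinesin that moves chromosomes to the spindle equator, had 15.8, 14.9, 15.7 and 15.1 FPKM in Neu+NETS, 15.6, 14.9, 14.8 and 15.2 in Neu and 15.8, 14.9, 15.1 and 14.4 in CTR. All 3 groups of Cenpe overlapped. Cenpe had log2 fold changes of -0.02 ± 0.036 (adjusted p = 0.67) in Neu+NETS and 0.06 ± 0.036 (adjusted p = 0.141) in Neu, each against CTR. For Cenpe the log2 fold change of Neu+NETS against Neu was -0.09 ± 0.035 (adjusted p = 0.0448). Its mean FPKM was higher in Neu+NETS than in Neu, at 15.3 ± 0.449 and 15.1 ± 0.359 (SD, n = 4 each). The call against Neu was lost in DESeq2 (adjusted p = 0.0809), with median-of-ratios factors (0.0866), with no filter (0.103), with library totals (0.754), with the 2 groups alone (0.169) and in 7 of 12 fits that left out 1 library, and in limma on log2(FPKM + 1) the difference was 0.0173.

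The Ndc80 complex, a rod of Ndc80, Nuf2, Spc24 and Spc25 that grips the microtubule end, had 1 gene called in Neu+NETS against CTR, Nuf2. Nuf2 had 7.80, 7.92, 7.32 and 7.64 FPKM in Neu+NETS, 5.12, 5.39, 5.45 and 4.997 in Neu and 9.05, 9.11, 8.16 and 8.54 in CTR. Nuf2 had log2 fold changes of -0.23 ± 0.049 (adjusted p = 0.000842) in Neu+NETS and -0.68 ± 0.050 (adjusted p = 3.7e-09) in Neu, each against CTR. For Nuf2 the log2 fold change of Neu+NETS against Neu was 0.44 ± 0.050 (adjusted p = 5.2e-07). Its groups were separate, with Neu+NETS between Neu and CTR. Ndc80 had 7.39, 8.33, 8.17 and 7.88 FPKM in Neu+NETS, 6.46, 6.72, 6.65 and 6.52 in Neu and 6.98, 6.61, 7.60 and 7.30 in CTR. Ndc80 had log2 fold changes of 0.11 ± 0.048 (adjusted p = 0.0793) in Neu+NETS and -0.06 ± 0.048 (adjusted p = 0.352) in Neu, each against CTR. For Ndc80 the log2 fold change of Neu+NETS against Neu was 0.16 ± 0.048 (adjusted p = 0.00673), and CTR overlapped both co-cultures. Spc24 and Spc25, the inner end of the rod that joins the kinetochore, averaged 6.67 ± 0.413 and 17.9 ± 1.12 FPKM in Neu+NETS, 3.46 ± 0.256 and 12.6 ± 0.345 in Neu and 5.47 ± 0.813 and 16.1 ± 0.463 in CTR. Against CTR their log2 fold changes in Neu+NETS were 0.23 ± 0.10 (adjusted p = 0.0696) and 0.10 ± 0.045 (adjusted p = 0.0821). With DESeq2, median-of-ratios factors, library totals or limma on FPKM, Ndc80, Spc24 and Spc25 were each called higher in Neu+NETS than in CTR. Knl1, which ties the complex to the checkpoint, was 0.02 ± 0.034 (adjusted p = 0.61) in Neu+NETS and -0.39 ± 0.034 (adjusted p = 4.5e-08) in Neu against CTR.

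Among the 6 spindle motors and microtubule proteins, 5 were called lower in Neu+NETS and 5 in Neu, against CTR, where 23.7% and 27.9% of all tested genes were. DESeq2 called 3 of the 6 lower in Neu+NETS, without Kif11 and Kif2c, and 5 in Neu. Nusap1, which bundles spindle microtubules near chromosomes, had 14.6, 15.4, 16.2 and 14.4 FPKM in Neu+NETS, 19.1, 19.000, 18.3 and 18.4 in Neu and 20.4, 19.99, 20.4 and 21.6 in CTR. Nusap1 had log2 fold changes of -0.49 ± 0.041 (adjusted p = 4.26e-08) in Neu+NETS and -0.08 ± 0.041 (adjusted p = 0.0995) in Neu, each against CTR. For Nusap1 the log2 fold change of Neu+NETS against Neu was -0.41 ± 0.041 (adjusted p = 1.53e-07). The order was Neu+NETS, Neu, CTR with no overlap in FPKM. The step between Neu and CTR was not called in edgeR, but it was in limma on log2(FPKM + 1) (-0.133, adjusted p = 0.00751). Kif11, the kinesin that pushes the spindle poles apart, had 25.3, 24.3, 25.4 and 25.4 FPKM in Neu+NETS, 18.01, 18.1, 17.99 and 18.2 in Neu and 26.2, 24.7, 25.7 and 26.3 in CTR. Kif11 had log2 fold changes of -0.09 ± 0.027 (adjusted p = 0.0157) in Neu+NETS and -0.45 ± 0.027 (adjusted p = 2.82e-10) in Neu, each against CTR. For Kif11 the log2 fold change of Neu+NETS against Neu was 0.37 ± 0.027 (adjusted p = 2.48e-09). Neu+NETS overlapped CTR in FPKM, and its call in Neu+NETS rested on the method and on single libraries. It was lost in DESeq2 (adjusted p = 0.0589), with median-of-ratios factors (0.0728), with library totals (0.426) and in limma on log2(FPKM + 1) (0.277), and without Neu+NETS library 2 (0.0681) or CTR library 1 (0.0624). Kif4, a motor carried on chromosome arms, had 13.8, 14.995, 13.9 and 14.3 FPKM in Neu+NETS, 11.3, 10.8, 10.9 and 10.9 in Neu and 14.6, 12.9, 13.6 and 13.4 in CTR. Kif4 had log2 fold changes of 0.02 ± 0.039 (adjusted p = 0.747) in Neu+NETS and -0.25 ± 0.039 (adjusted p = 3.19e-05) in Neu, each against CTR. For Kif4 the log2 fold change of Neu+NETS against Neu was 0.27 ± 0.039 (adjusted p = 1.11e-05), with the Neu libraries apart below both other groups.

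Tpx2, which activates Aurka on the spindle, averaged 61.4 ± 1.25 FPKM in Neu+NETS, 54.3 ± 1.85 in Neu and 66.2 ± 1.65 in CTR (SD, n = 4 each) and was called lower than CTR in both co-cultures. Hmmr, a spindle assembly factor, and Kif2c, a kinesin that strips tubulin from microtubule ends, were called lower in Neu, at -0.33 ± 0.033 (adjusted p = 1.7e-07) and -0.39 ± 0.045 (adjusted p = 9.27e-07) on the log2 scale. In Neu+NETS they were also called lower, at -0.13 ± 0.032 (adjusted p = 0.00358) and -0.12 ± 0.045 (adjusted p = 0.0424), and both calls were lost in limma on FPKM and with library totals alone. The call of Kif2c was also lost in DESeq2 and in 8 of 12 fits that left out 1 library, with adjusted p between 0.0501 and 0.169 in those 8.

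The central spindle and cytokinesis genes held the second largest fall in Neu+NETS. Of the 6, 5 were called lower in Neu+NETS and 6 in Neu. Kif23, the motor of the centralspindlin complex that gathers at the cleavage plane, had 9.62, 10.2, 9.91 and 10.1 FPKM in Neu+NETS, 12.9, 13.2, 12.5 and 12.04 in Neu and 14.2, 14.04, 15.3 and 15.8 in CTR. Kif23 had log2 fold changes of -0.62 ± 0.041 (adjusted p = 1.88e-09) in Neu+NETS and -0.17 ± 0.041 (adjusted p = 0.00194) in Neu, each against CTR. For Kif23 the log2 fold change of Neu+NETS against Neu was -0.46 ± 0.041 (adjusted p = 3.41e-08), with groups in the order Neu+NETS, Neu, CTR and no overlap. Racgap1, its partner in the same complex, had the order Neu, Neu+NETS, CTR, at 25.9 ± 0.833 FPKM in Neu+NETS, 22.8 ± 0.581 in Neu and 31.99 ± 0.457 in CTR. Between the co-cultures Racgap1 was called higher in Neu+NETS, at 0.08 ± 0.026 (adjusted p = 0.0124) on the log2 scale, where Kif23 was called lower. Ect2, the exchange factor that centralspindlin recruits to activate RhoA, was called lower, at -0.10 ± 0.038 (adjusted p = 0.0491) in Neu+NETS and -0.38 ± 0.038 (adjusted p = 2.03e-07) in Neu against CTR. The call in Neu+NETS was lost in DESeq2 (adjusted p = 0.145) and in 8 of 12 fits that left out 1 library, with adjusted p between 0.0547 and 0.134 in those 8.

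Anln, the anillin scaffold of the contractile ring, had 11.1, 11.7, 11.1 and 11.6 FPKM in Neu+NETS, 7.45, 8.05, 7.62 and 8.12 in Neu and 10.96, 10.8, 11.2 and 11.3 in CTR. Anln had log2 fold changes of -0.01 ± 0.032 (adjusted p = 0.836) in Neu+NETS and -0.44 ± 0.032 (adjusted p = 3.18e-09) in Neu, each against CTR. For Anln the log2 fold change of Neu+NETS against Neu was 0.43 ± 0.032 (adjusted p = 2.57e-09). The Neu libraries stood apart below the others, and Neu+NETS overlapped CTR, with a difference that changed sign under median-of-ratios factors (0.0136). Prc1, which crosslinks the microtubules of the central spindle, and Kif20a, the motor that carries the passenger complex there, were called lower in both co-cultures, with log2 fold changes of -0.19 ± 0.034 and -0.31 ± 0.030 in Neu+NETS and -0.31 ± 0.034 and -0.26 ± 0.030 in Neu. For Kif20a the libraries of Neu+NETS lay above those of Neu in FPKM while the tested log2 fold change was -0.05 ± 0.030 (adjusted p = 0.132), or 0.0187 with library totals in place of TMM.

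The chromosome proteins used as proliferation markers differed from each other. Mki67, the Ki-67 antigen that coats mitotic chromosomes, had 45.8, 48.4, 46.5 and 49.7 FPKM in Neu+NETS, 40.5, 40.1, 37.7 and 38.8 in Neu and 62.3, 59.1, 61.9 and 62.6 in CTR. Mki67 had log2 fold changes of -0.42 ± 0.029 (adjusted p = 4.12e-09) in Neu+NETS and -0.59 ± 0.029 (adjusted p = 2.45e-11) in Neu, each against CTR. For Mki67 the log2 fold change of Neu+NETS against Neu was 0.17 ± 0.029 (adjusted p = 5.96e-05), with 3 separate groups. Top2a, the topoisomerase that untangles sister DNA, had 55.3, 56.6, 55.8 and 59.5 FPKM in Neu+NETS, 43.8, 43.5, 42.3 and 43.6 in Neu and 56.6, 54.6, 54.9 and 55.4 in CTR. Top2a had log2 fold changes of -0.01 ± 0.024 (adjusted p = 0.738) in Neu+NETS and -0.30 ± 0.024 (adjusted p = 1.3e-08) in Neu, each against CTR. For Top2a the log2 fold change of Neu+NETS against Neu was 0.29 ± 0.024 (adjusted p = 1.38e-08). It was lower than CTR in Neu, by 1.23-fold, and overlapped CTR in Neu+NETS, where the sign changed under median-of-ratios factors (0.0119).

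The 8 genes called lower in Neu+NETS than in Neu were Ccnb2, Kif23, Cenpf, Nusap1, Cenpa, Ube2c, Plk1 and Cenpe, from 6 of the 8 roles. Of these, Ube2c, Plk1 and Cenpe lost the call in limma on FPKM, and Cenpe also in DESeq2. In the deposited table, on build GRCm39 by the submitters' processing notes, the gene with the largest such fall and that with the largest rise are Ccnb2 (ENSMUSG00000032218) from 70314974 to 70328829 on chromosome 9, minus strand, and Mad2l1 (ENSMUSG00000029910) from 66512374 to 66524204 on chromosome 6, plus strand. The 8 members of the 43 that overlap a gene of at least 1 FPKM on the opposite strand were Ccna2 (Exosc9), Cdc20 (Elovl1), Cdca8 (Airim), Kif20a (Cdc23), Kif4 (Pdzd11), Nusap1 (Oip5), Prc1 (Rccd1) and Top2a (Gm55134). The labels do not say whether reads were counted by strand, so reads from bases that both genes of a pair share may not be told apart. Only the spans of the genes were compared, not their exons, so the share of such reads is not known. The neighbour of Kif4 averaged 17.4 FPKM beside its own 13.0 over the 12 libraries. Among the 35 genes with a promoter window, the 13 with a CHR before the start and the 22 without had median log2 fold changes of -0.19 and -0.08 in Neu+NETS against CTR, -0.42 and -0.31 in Neu against CTR, and 0.21 and 0.23 in Neu+NETS against Neu. Of the 22, 15 held a CHR that lay in or reached the bases after the start. The rest of the 22, Mad2l1 among them, held none in the window. The split thus mixes the place of the CHR with its presence.

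Genes of neighbouring cell cycle steps were listed by function, with earlier results of these data known. Their counts are to be read beside the shares of all tested genes called higher and lower, which were 21.6% and 23.7% in Neu+NETS against CTR, 26.1% and 27.9% in Neu against CTR, and 29.4% and 33.1% in Neu+NETS against Neu. Of 29 genes of DNA replication in S phase, 29 fell in Neu against CTR (median -0.92), and 14 rose and 3 fell in Neu+NETS against CTR (median 0.06). All 29 rose in Neu+NETS against Neu (median 1.15, where the 43 mitotic genes had 0.20). Cdc6, which loads the replicative helicase, averaged 21.1 ± 0.674 FPKM in Neu+NETS, 3.91 ± 0.256 in Neu and 14.3 ± 0.279 in CTR. Rrm2, a subunit of ribonucleotide reductase, averaged 72.5 ± 1.21, 15.3 ± 0.359 and 42.6 ± 1.76 FPKM in the same order of groups. Both exceeded CTR in Neu+NETS, with log2 fold changes of 0.51 ± 0.039 (adjusted p = 1.23e-08) and 0.72 ± 0.035 (adjusted p = 3.55e-11).

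Of 13 other kinases and phosphatases that set entry into mitosis, 1 rose and 5 fell in Neu+NETS against CTR, 12 fell in Neu against CTR, and 11 rose and 1 fell in Neu+NETS against Neu. The Cdc25 phosphatases differed. Cdc25a, which also acts at the start of S phase, averaged 8.07 ± 0.360 FPKM in Neu+NETS, 2.35 ± 0.148 in Neu and 7.10 ± 0.225 in CTR, with log2 fold changes of 0.14 ± 0.047 (adjusted p = 0.0258) in Neu+NETS and -1.54 ± 0.050 (adjusted p = 1.27e-13) in Neu against CTR. Cdc25b, which acts in G2 phase, averaged 31.4 ± 1.45, 47.1 ± 2.98 and 57.7 ± 1.93 FPKM in Neu+NETS, Neu and CTR, and was lowest in Neu+NETS, with a log2 fold change of -0.92 ± 0.039 (adjusted p = 6.43e-12) against CTR. Chek1, the checkpoint kinase of damaged or stalled DNA, fell in Neu, with a log2 fold change of -1.47 ± 0.063 (adjusted p = 4.31e-12).

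Of 29 kinetochore genes beyond the 8 above, 9 rose and 6 fell in Neu+NETS against CTR (median 0.06), where 21.6% and 23.7% of all tested genes did. In the same list 2 rose and 25 fell in Neu against CTR (median -0.58), and 24 rose and 2 fell in Neu+NETS against Neu (median 0.63). Zwint, a partner of Knl1, averaged 27.9 ± 0.596 FPKM in Neu+NETS, 14.1 ± 0.598 in Neu and 15.7 ± 0.550 in CTR, and rose in Neu+NETS, with a log2 fold change of 0.78 ± 0.035 (adjusted p = 1.69e-11), and fell in Neu, with one of -0.10 ± 0.036 (adjusted p = 0.0213), each against CTR. Kntc1, which brings the motor dynein to kinetochores, fell in Neu, with a log2 fold change of -1.06 ± 0.050 (adjusted p = 1.28e-11), and rose in Neu+NETS, with one of 0.33 ± 0.049 (adjusted p = 2.5e-05), each against CTR. Of 19 condensin, cohesin and shugoshin genes, 9 rose and 6 fell in Neu+NETS against CTR (21.6% and 23.7% of all tested genes), and 17 fell in Neu against CTR (27.9%). Ncapg2, a condensin II subunit, rose in Neu+NETS, with a log2 fold change of 0.33 ± 0.034 (adjusted p = 4.43e-07), and fell in Neu, with a log2 fold change of -0.65 ± 0.034 (adjusted p = 5.64e-11), while the cohesin gene Rad21 fell in Neu+NETS, with a log2 fold change of -0.29 ± 0.025 (adjusted p = 4.61e-08).

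Of 26 further spindle and midbody genes, 3 rose and 13 fell in Neu+NETS (median -0.16) and 1 rose and 22 fell in Neu (median -0.33), against CTR, where the 43 had -0.19 and -0.39. Aspm, which focuses spindle poles, fell in Neu+NETS, with a log2 fold change of -0.40 ± 0.038 (adjusted p = 1.75e-07), and Plk4, the kinase of centriole copying, fell in Neu, with a log2 fold change of -0.86 ± 0.060 (adjusted p = 2.03e-09), and rose in Neu+NETS, with one of 0.16 ± 0.059 (adjusted p = 0.032) against CTR and 1.03 ± 0.060 (adjusted p = 1.21e-10) against Neu. Of 17 subunits and regulators of the anaphase-promoting complex, 5 rose and 6 fell in Neu+NETS against CTR, beside 21.6% and 23.7% of all tested genes. In Neu against CTR 4 of them rose and 11 fell, beside 26.1% and 27.9%. Fzr1, the activator that replaces Cdc20 after mitosis, fell in Neu+NETS, with a log2 fold change of -0.58 ± 0.051 (adjusted p = 7.31e-08). Fbxo5 (Emi1), which inhibits the complex before mitosis, fell in Neu, with a log2 fold change of -0.77 ± 0.056 (adjusted p = 3.62e-09), and rose in Neu+NETS, with one of 0.19 ± 0.055 (adjusted p = 0.00976) against CTR and 0.96 ± 0.056 (adjusted p = 1.19e-10) against Neu.

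Of 14 genes of DREAM, B-Myb and E2F repressors analysed here, 5 rose and 3 fell in Neu+NETS against CTR, where 21.6% and 23.7% of all tested genes did. In Neu against CTR 2 rose and 9 fell, beside 26.1% and 27.9%. DESeq2 called 8 of the 14 higher in Neu+NETS against CTR, beside 3997 of all 16387 tested genes, so the count rested on the method. Mybl2 (B-Myb), the activator that joins MuvB in S phase, averaged 68.1 ± 1.57 FPKM in Neu+NETS, 28.9 ± 1.01 in Neu and 65.2 ± 1.87 in CTR, a log2 fold change of -1.12 ± 0.028 (adjusted p = 4.63e-15) in Neu. Rbl2 (p130), the pocket protein of DREAM in resting cells, fell in Neu+NETS, with a log2 fold change of -0.26 ± 0.052 (adjusted p = 0.000658), and rose in Neu, with one of 0.43 ± 0.052 (adjusted p = 1.72e-06), each against CTR.

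Of 14 genes of Cdk inhibitors and growth arrest, 5 rose and 5 fell in Neu+NETS and 10 rose and 2 fell in Neu, against CTR (21.6% and 23.7%, and 26.1% and 27.9%, of all tested genes), and 1 rose and 9 fell in Neu+NETS against Neu. Cdkn1a (p21), an inhibitor of cyclin-dependent kinases, averaged 24.2 ± 1.36 FPKM in Neu+NETS, 109 ± 2.47 in Neu and 15.1 ± 0.796 in CTR. Its log2 fold changes against CTR were 0.63 ± 0.044 (adjusted p = 4.3e-09) in Neu+NETS and 2.91 ± 0.046 (adjusted p = 2.64e-17) in Neu. Cdkn1b (p27) rose in Neu, with a log2 fold change of 1.50 ± 0.064 (adjusted p = 3.49e-12), and Ccng2, a cyclin linked to growth arrest, rose with one of 2.35 ± 0.055 (adjusted p = 2.68e-15).

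**Figure D4:**
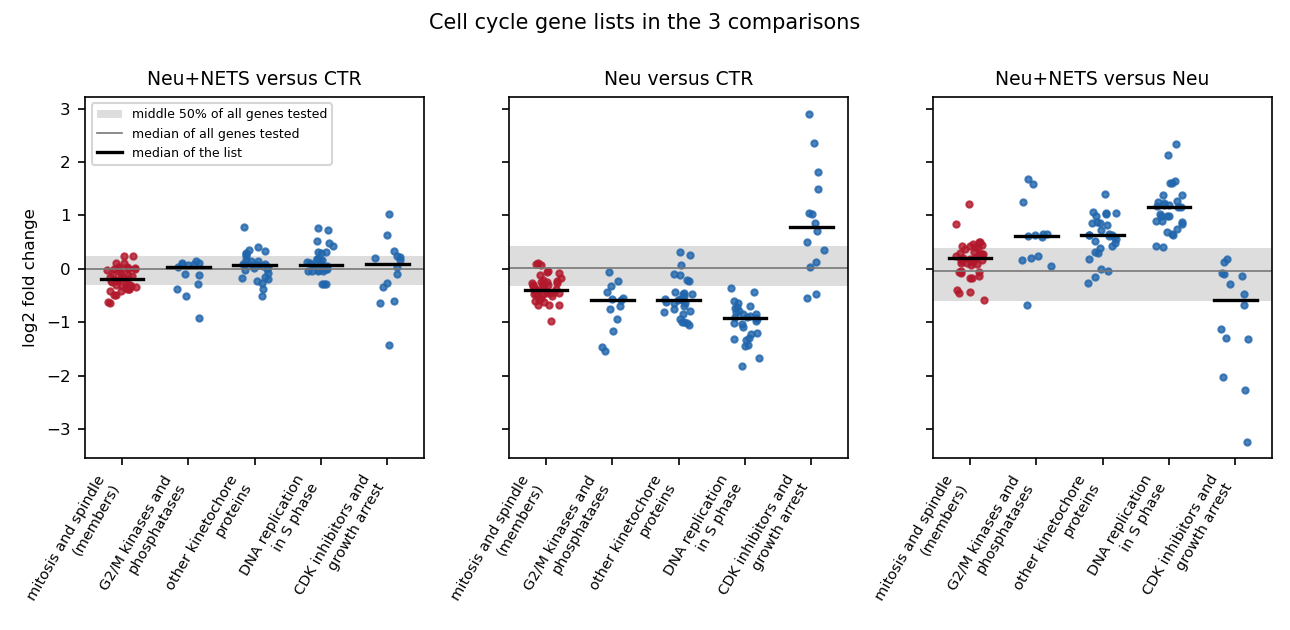
Log2 fold changes of the 43 mitosis and spindle genes and of 4 neighbouring cell cycle lists in the 3 comparisons, 1 point a gene, with the list's median as a black bar, the median of all genes tested as a grey line and their middle 50% shaded. In Neu+NETS against Neu the median was 0.20 for the 43 genes and 1.15 for DNA replication, and in Neu against CTR it was -0.39 and -0.92.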

How the data were processed

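The authors deposited 1 table of estimated counts and FPKM for 27487 genes in 12 libraries. Per the submitters' processing notes, HISAT2 2.0.4, StringTie 1.3.4d, edgeR and build GRCm39 were used, with no parameters named. Neither strand setting nor annotation is given in the sources used here. Of the low deposited counts 33.0% were multiples of 4. That share does not settle whether a count is 1 fragment, and dividing by 4 was tried. FPKM as deposited by the authors is scaled to each library's own total.

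The counts, whole numbers as deposited, were tested in R 4.3.3 with edgeR 4.0.16 (TMM, edgeR's default filter on low counts, quasi-likelihood test, 12 libraries in 1 fit, Benjamini-Hochberg adjustment over 16387 genes). An adjusted p in the text is from that test unless another is named. The common biological coefficient of variation was 12.5%. The SE of a log2 fold change is its size divided by the square root of the test's F. The procedure was tested on simulated data. Alternatives used limma 3.58.1 on log2(FPKM + 1) and log2(FPKM + 0.1), DESeq2 1.42.0, other scaling, no filter, a replicate block, the compared groups alone and each library left out.

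The 43 genes and the other lists were chosen with earlier results of these data known. Library values are given for the genes of largest and smallest change in each role, for those that ran against the majority and for 8 set regulators and markers; of other lists, up to 4 called genes with the smallest adjusted p in a comparison. Same-numbered libraries did not deviate together (r from -0.0546 to 0.0426), so numbers were not taken as pairs. Promoters came from a RefSeq table of GRCm38.p6 and were matched by symbol.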

Additional observations from a re-analysis of the deposited data

Results flagged for a closer look

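In 4 of the 129 sets of 4 libraries (43 genes in 3 groups), 1 library stood apart from the other 3 by Dixon's test at the 95% level, a share near the 1 in 20 that chance gives. Cdc25c was 3.90 FPKM in Neu+NETS library 3, with the others at 3.71 to 3.74. Kif11 was 24.3 FPKM in Neu+NETS library 2, with the others at 25.3 to 25.4, and this is a library without which its fall against CTR was not called. Foxm1 was 13.1 FPKM in Neu+NETS library 3, with the others at 14.2 to 14.4. Pttg1 was 10.7 FPKM in Neu library 1, with the others at 11.3 to 11.4.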

How the results depend on the processing

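Across all alternatives, direction and side of the threshold held for 26 of the 43 genes in Neu+NETS against CTR, 38 in Neu against CTR and 36 in Neu+NETS against Neu. The cause of the changes below was not tested. In Neu+NETS against CTR the count called higher was 4 in limma (pseudocount 1, 0.1, or 1 with no filter), DESeq2 and median-of-ratios factors, 5 with library totals and 2 on counts divided by 4. It was 1 to 2, with 26 to 29 lower, when 1 library was left out (2 without Neu+NETS library 1 or 3 or CTR library 2 or 3). The median was -0.1344 in limma (pseudocount 1, with or without filter), -0.1411 with 0.1, -0.1350 with library totals and -0.2046 to -0.1728 with 1 library left out. In Neu against CTR, limma called 0 higher (medians -0.4267, -0.4467 and -0.4267), and leaving out 1 library gave 1 to 3 higher (1 without Neu library 1 or 2 or CTR library 2 or 3), 37 lower and medians of -0.4077 to -0.3841. In Neu+NETS against Neu, limma called 5 lower (medians 0.2957, 0.3033 and 0.2957), library totals gave a median of 0.2709 and the 2 groups alone 0.2306, and leaving out 1 library gave 31 to 32 higher, 7 to 8 lower and medians of 0.1846 to 0.2076.

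Signs turned for differences near 0. In Neu+NETS against CTR, Top2a, Cdca8, Cenpe and Anln were 0.0364, 0.0431, 0.0257 and 0.0359 in limma (pseudocount 1), 0.0370, 0.0454, 0.0272 and 0.0387 with 0.1, 0.0119, 0.0206, 0.0019 and 0.0136 in DESeq2, the same but for Cenpe (0.0018) with median-of-ratios factors, and 0.0445, 0.0531, 0.0345 and 0.0462 with library totals, where Cdk1 was 0.0017. Cdca8 was 0.0055 without the filter and 0.0012 on counts divided by 4. With 1 library left out, ranges that crossed 0 were -0.0297 to 0.0042 (Top2a), -0.0264 to 0.0269 (Cdca8), -0.0444 to 0.0089 (Cenpe), -0.0216 to 0.0013 (Anln), -0.0065 to 0.0407 (Ttk), -0.0028 to 0.0576 (Kif4) and -0.0349 to 0.0681 (Pttg1). In Neu+NETS against Neu, Cdc25c, Bub1, Cenpe and Kif20a were 0.0494, 0.0437, 0.0173 and 0.0507 in limma, 0.0614, 0.0444, 0.0183 and 0.0518 with 0.1, and Cdc25c, Bub1 and Kif20a were 0.0289, 0.0118 and 0.0187 with library totals. The call of Tpx2 there was lost without Neu library 2 or 3 or Neu+NETS library 3 or 4. Over all genes, limma called 59.55% of its calls higher there, against 47.06% in edgeR.

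With the replicate block, the counts were 1 higher and 28 lower, 2 and 37, and 32 and 8 in the 3 comparisons, and Ect2 lost its call in Neu+NETS against CTR (adjusted p = 0.0574). Counting a CHR only before the start cut the promoters that hold one from 28 to 13.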
